A study of Mus musculus with 4 samples.

Results

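The genes described are the collagens, the chains of the structural proteins that carry most of the tensile strength of connective tissue. A gene was a member when its name on the array was Col, a number, the letter a and a number. This gave 40 genes, read by 81 probes, among the 27745 genes named on the array, and each gene was represented by its brightest probe. By the structure of the protein, 11 were fibrillar collagens, 6 were basement-membrane (type IV) collagens, 9 were FACIT collagens (fibril-associated collagens with interrupted triple helices) and 14 were others, among them the beaded-filament, network, anchoring-fibril and transmembrane types.

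The samples were mouse embryonic fibroblasts (MEFs), connective-tissue cells grown from mid-gestation embryos, in logarithmic growth in DMEM with 10% heat-inactivated serum. One culture labelled CycG1-/- (G1KO, lacking the cyclin G1 gene Ccng1) was set against a CycG1+/+ culture (WT), and one labelled CycG2-/- (G2KO, from mice lacking the cyclin G2 gene Ccng2) was set against a CycG2+/+ culture (WT). All were labelled C57BL/6J, although the source names of the G2KO pair read C57BL/7J. Cyclins G1 and G2 are related proteins that recruit the phosphatase PP2A, and the comparisons ask which transcripts depend on either of them. In the Ccng1 allele described in the study's methods the coding exons were replaced by a PGK-neo cassette. Each pair of cultures was hybridised to 2 arrays of 2 colours with the dyes exchanged, so each genotype of a comparison is 1 culture and no difference below has a check in a second culture. A ± value gives the spread of the 2 arrays as an SD, which is technical.

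Checks of the labels bear on every value below. The log2 ratio of knockout over WT for Ccng1 was -6.67 in G1KO. Ccng2 was not lower in the RNA labelled G2KO, with a log2 ratio of 0.09, and Ccng1 was higher there at 2.67, so the group is called by its label alone. Xist, expressed from the inactive X chromosome, was at a log2 ratio of 7.54 in G1KO and 7.24 in G2KO, and the Y-linked Eif2s3y was at least 82.3-fold and at least 51.2-fold lower. Sex and genotype can therefore not be told apart in either comparison. No defining fibroblast marker was missing: all 10 on the list, among them Pdgfra, Pdgfrb, Thy1, Vim and Fn1, were well above background on both arrays in each of the 4 cultures. Between 25366 and 27757 of the 43379 gene spots were well above background per culture and array, and no spot was saturated.

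Collagens are made as procollagen chains that assemble into a triple helix in the endoplasmic reticulum, after hydroxylation of prolines and lysines. Fibrillar chains are then trimmed outside the cell, packed into fibrils and cross-linked by lysyl oxidases. Fibroblasts are the main source of types I, III, V and VI, whereas type II, type IX and the alpha 1 chain of type XI are best known from cartilage, and type IV forms the sheet-like network of basement membranes. Collagen XVIII is a heparan sulfate proteoglycan of basement membranes, from which the fragment endostatin is released.

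The sequence before the start site is shown for members whose values differed most or that stand for a class. Type I and type XI collagen promoters are known for a CCAAT box, bound by the factor NF-Y, and for GC boxes, bound by Sp1-family factors. The sequences are RefSeq windows on GRCm38.p6, at most 250 bases upstream of the gene start, cut where another start of the gene lay upstream. Capitals mark CCAAT and GGGCGG on either strand (so also ATTGG and CCGCCC) and TATAAA on the gene's own strand. Col1a2 lies at chr6:4505368-4505617, plus strand. Col3a1 lies at chr1:45311288-45311537, plus strand. Col11a1 lies at chr3:114030290-114030478, plus strand. Col6a3 lies at chr1:90844002-90844221, minus strand. Col18a1 lies at chr10:77166531-77166780, minus strand.
Col1a2: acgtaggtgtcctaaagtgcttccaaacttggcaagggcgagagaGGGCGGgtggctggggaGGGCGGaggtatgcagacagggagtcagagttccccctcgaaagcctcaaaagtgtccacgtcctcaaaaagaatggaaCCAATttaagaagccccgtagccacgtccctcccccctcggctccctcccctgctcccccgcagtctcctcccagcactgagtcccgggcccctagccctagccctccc
Col3a1: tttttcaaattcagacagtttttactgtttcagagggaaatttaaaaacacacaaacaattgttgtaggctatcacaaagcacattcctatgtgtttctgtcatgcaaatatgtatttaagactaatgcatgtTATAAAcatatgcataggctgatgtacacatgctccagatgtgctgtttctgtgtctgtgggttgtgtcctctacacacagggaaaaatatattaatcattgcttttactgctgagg
Col11a1: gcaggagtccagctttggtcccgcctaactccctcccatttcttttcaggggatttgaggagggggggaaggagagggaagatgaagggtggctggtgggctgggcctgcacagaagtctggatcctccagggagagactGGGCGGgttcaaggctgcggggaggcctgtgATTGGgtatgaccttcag
Col6a3: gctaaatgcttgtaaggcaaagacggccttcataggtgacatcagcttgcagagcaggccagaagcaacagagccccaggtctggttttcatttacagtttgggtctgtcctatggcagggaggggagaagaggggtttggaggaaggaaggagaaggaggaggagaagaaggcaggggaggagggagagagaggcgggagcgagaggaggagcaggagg
Col18a1: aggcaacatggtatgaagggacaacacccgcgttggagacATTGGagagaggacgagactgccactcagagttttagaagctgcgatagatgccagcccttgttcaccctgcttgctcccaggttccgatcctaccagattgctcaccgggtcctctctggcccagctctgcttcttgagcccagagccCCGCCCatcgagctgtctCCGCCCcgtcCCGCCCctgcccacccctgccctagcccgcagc

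Windows were given for 32 of the 40 genes. CCAAT stood in 11 of these 32 and in 34.5% of all 27025 genes with a window. GGGCGG stood in 18 of the 32 and in 32.9% of all windows, and TATAAA in 5 of the 32 and in 8.12% of all. Among the 15 windows of genes lower in G2KO (below), 7 held CCAAT, 11 held GGGCGG and 1, that of Col3a1, held TATAAA. The Col6a3 window held none of these letters, and that of Col18a1, which was higher in both comparisons, held CCAAT and GGGCGG. A match is a description of the sequence and not a binding site.

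A gene was tested where its probe was well above background on both arrays of a pair in at least 1 genotype. It was called higher or lower when its log2 ratio of knockout over WT was at least 1 in size, or 2-fold, in the same direction on each array. In G1KO, 30 collagen genes were tested, of which 6 were higher and 4 lower. Over all 16615 genes tested, 2.48% were higher and 4.46% lower. In G2KO, 32 were tested, of which 3 were higher and 19 lower, against 2.73% and 4.84% of 16573 genes. The median log2 ratio of the collagens was -0.12 in G1KO and -1.46 in G2KO, while that of all genes tested was -0.0024 and -0.016. In the RNA labelled G2KO, 28 of the 32 ratios were below 0. With each array centred on its median and no loess, 2 collagens were higher and 1 lower in G1KO, and 2 higher and 10 lower in G2KO, while the mean ratios stayed close, for example Col5a1 at 1.26 in G1KO and Col1a2 at -2.09 in G2KO.

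**Figure D1:**
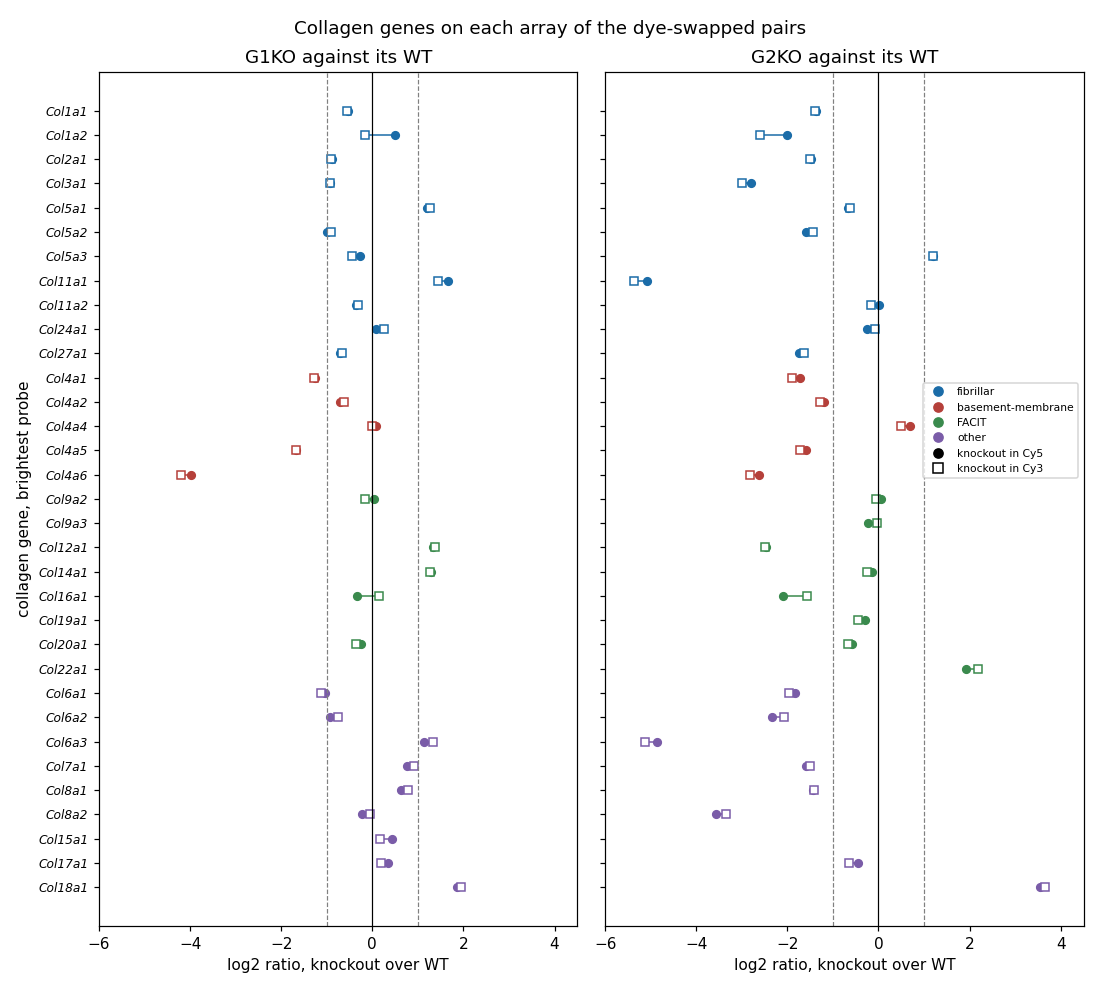
Log2 ratio of knockout over WT (x axis) for the 33 collagen genes tested in at least 1 comparison (y axis, brightest probe), coloured by class. Filled circles are the array with the knockout RNA in Cy5 and open squares the array with it in Cy3, and dashed lines mark a 2-fold difference. In G2KO 28 of 32 genes lie left of 0, from -5.23 to 3.61, whereas in G1KO 13 of 30 lie right of it.

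Among fibrillar collagens, the rope-forming types, 7 of 11 were lower and 1 was higher in the RNA labelled G2KO, with a median log2 ratio of -1.50. In G1KO 2 were higher, none was lower, and the median was -0.36. Col11a1, the alpha 1 chain of type XI that sets fibril diameter, differed most. Its probe (mm8 chromosome 3, 114211239 to 114211297) had log2 ratios of -5.09 and -5.37 in G2KO, a mean of -5.23 ± 0.19 or 37.5-fold lower, and of 1.66 and 1.43 in G1KO, or 2.92-fold higher. Its normalised log2 level was 9.76 in the WT of the G1KO pair, 11.30 in G1KO, 14.51 in the WT of the G2KO pair and 9.28 in G2KO. The WT of the G2KO pair thus stood above the other 3 cultures, and the WT cultures differed from each other by 4.76. Both other probes of Col11a1 were lower in G2KO too, with mean log2 ratios of -3.53 and -2.91, and that at -3.53 was higher in G1KO at 1.06.

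Type III and type I chains, the main fibrillar collagens of fibroblasts, were lower in G2KO. Col3a1 (chromosome 1, 45293290 to 45293349) stood at -2.80 and -3.001 in G2KO, or 7.47-fold lower, and at -0.94 and -0.93 in G1KO, just short of the threshold. Col1a2 (chromosome 6, 4490619 to 4490678) stood at -2.02 and -2.61 in G2KO and at 0.51 and -0.16 in G1KO. Of all collagens tested it had the largest spread between arrays in both comparisons, with an SD of 0.47 in G1KO and 0.42 in G2KO, and in G1KO the arrays differed in sign. Col1a1 (chromosome 11, 94767851 to 94767910), whose product pairs with that of Col1a2 in type I collagen, stood at -1.37 and -1.40 in G2KO and at -0.55 and -0.55 in G1KO. The levels of Col3a1 were 15.58 and 15.34 in the WT cultures, 14.64 in G1KO and 12.44 in G2KO, so that G2KO was lowest and the WT cultures lay within 0.24 of each other. Those of Col1a2 were 16.62 in the WT of the G1KO pair, 16.79 in G1KO, 17.93 in the WT of the G2KO pair and 15.62 in G2KO. Those of Col1a1, in the same order, were 16.67, 16.12, 17.08 and 15.69. For both genes G2KO was lowest and the WT of its own pair highest.

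Type V and other fibrillar chains were divided. Col5a1, the chain that starts type I fibrils, was higher in G1KO at 1.19 and 1.26 and was at -0.67 and -0.63 in G2KO. Its dimmer probe was at 0.68 in G1KO, where it was not called, and at -0.85 in G2KO. The mean over its probes was 0.96 in G1KO, where the gene would not be called. Col5a2 was lower in G2KO at -1.59 and -1.44 and reached -0.9995 and -0.92 in G1KO, where it missed the threshold. Col5a3 was the only fibrillar collagen called higher in G2KO, at 1.19 and 1.19, and was at -0.27 and -0.44 in G1KO. The 3 chains of type V thus did not follow each other in either comparison. Col27a1, a fibrillar collagen of developing cartilage, was lower in G2KO at -1.75 and -1.63 and at -0.70 and -0.66 in G1KO. The brightest probe of Col2a1, the type II chain of cartilage, was lower in G2KO at -1.49 and -1.51 and at -0.88 and -0.90 in G1KO. Its other tested probe was at 0.63 in G2KO and 0.23 in G1KO, so the probes of this gene disagreed in sign. The mean log2 ratios of the brightest probes of Col11a2 and Col24a1 lay between -0.35 and 0.16 in both comparisons. The dimmer probe of Col24a1 was at -1.04 in G1KO, where the brightest was at 0.16, and was not called. The probes of Col24a1 thus disagreed in sign there.

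Of the type IV collagens 5 of 6 were tested. In G2KO 4 were lower, with a class median of -1.65, and in G1KO 3 were lower, with a median of -1.27. Col4a6 (chromosome X, 136411815 to 136411874) was at -3.99 and -4.20 in G1KO, or 17.1-fold lower, and at -2.63 and -2.83 in G2KO, or 6.64-fold lower. Its dimmer probes were at -2.28 and -0.82 in G1KO and at -0.42 and -0.26 in G2KO, which is the same direction with a smaller size. Col4a5, its neighbour on the X chromosome (136934820 to 136934879), was at -1.67 and -1.68 in G1KO and -1.59 and -1.71 in G2KO. Both genes are X-linked, and the cultures of each comparison differed in Xist as given above. The part of that difference in these ratios was not tested.

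The type IV chains found in nearly all basement membranes are the products of Col4a1 and Col4a2, which lie head to head on chromosome 8. Col4a1 was lower in both comparisons, at -1.25 and -1.29 in G1KO and -1.72 and -1.89 in G2KO. Col4a2 was lower in G2KO, at -1.21 and -1.29, and was at -0.72 and -0.61 in G1KO. Their levels stood in the same order of cultures: Col4a1 was at 15.12 in the WT of the G1KO pair, 13.85 in G1KO, 13.54 in the WT of the G2KO pair and 11.73 in G2KO, and Col4a2 at 13.68, 13.02, 12.52 and 11.27. The WT cultures differed by 1.58 for Col4a1, 1.17 for Col4a2 and 3.22 for Col4a6, higher in the WT of the G1KO pair each time. Col4a4, which pairs with Col4a3 in kidney and lung basement membranes, was at 0.04 in G1KO and 0.60 in G2KO and was called in neither, and Col4a3 was not tested.

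Markers of the mesothelium, the epithelium-like lining of body cavities that lays down a basement membrane, also differed between the WT cultures. All 10 were lower in the WT of the G2KO pair, as were Col4a1, Col4a2 and Col4a6. Col4a5 at -0.35 and Col4a4 at 0.45 were not called between the WT cultures. Col18a1, also of basement membranes, was higher in the WT of the G2KO pair at 2.01. All 10 mesothelial markers were well above background in the WT of the G1KO pair and in G1KO, but 3 in the WT of the G2KO pair and 2 in G2KO. Upk3b, Upk1b, Wt1, Lrrn4, Krt8, Muc16 and Gpm6a were above background on no array in the latter 2. In G1KO 8 of the 10 were lower and 1, Krt19, was higher, with a median log2 ratio of -3.65. In G2KO 3 of the 10 were tested. Msln was higher there at 1.60 and Krt19 lower at -1.40, while 4 type IV collagens were lower. Over all genes 2.48% were higher and 4.46% lower in G1KO, and 2.73% and 4.84% in G2KO. The summed linear level of the list was 256000 to 298000 in the WT of the G1KO pair, 57300 to 62500 in G1KO, 1980 to 2040 in the WT of the G2KO pair and 4050 to 4380 in G2KO. Their part in the type IV collagen values was not tested. Fewer cells of a type and less RNA per cell cannot be told apart in these bulk samples.

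FACIT collagens sit on the surface of fibrils. In G2KO 8 of 9 were tested, of which 2 were lower and 1 was higher, with a median log2 ratio of -0.29. In G1KO 5 were tested, of which 2 were higher. Col12a1 (chromosome 9, 79385147 to 79385206), the type XII chain of dense connective tissue, was at -2.47 and -2.48 in G2KO, or 5.56-fold lower, and at 1.33 and 1.38 in G1KO, or 2.56-fold higher. Its levels were 10.04 and 13.44 in the WT of the G1KO and the G2KO pair, 11.40 in G1KO and 10.96 in G2KO, so that both knockout cultures lay between the WT cultures. Col16a1 was lower in G2KO, at -2.09 and -1.57, and was at -0.33 and 0.14 in G1KO. Its dimmer probe was at -0.46 in G2KO.

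Other FACIT members were near background. Col14a1 was called higher in G1KO at 1.28 and 1.27, where the WT was not well above background, so it was at least 2.42-fold higher. In G2KO it was not well above background in the knockout and had a log2 ratio of -0.21. By the scanner's own ratio Col14a1 was at 4.79 in G1KO and -2.46 in G2KO, so the size for this dim gene depends on the background correction and normalisation. Col22a1, a collagen of tissue junctions, was called higher in G2KO at 1.92 and 2.19, with the WT above background on 1 of 2 arrays, and was not tested in G1KO. Its level in G2KO was 8.39, against 6.07 to 6.34 in the other 3 cultures. Its other probe was at 0.63 in G2KO, and by the scanner's own ratio the brightest was at 4.40. Col9a2, Col9a3, Col19a1 and Col20a1 were called in neither comparison, and their ratios where tested lay between -0.62 and -0.0006.

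The other collagens gave the second largest difference. In G2KO 8 of 14 were tested, of which 6 were lower and 1 was higher, with a median of -1.72. In G1KO 9 were tested, of which 2 were higher and 1 was lower, with a median of 0.30. Col6a3 (chromosome 1, 92597492 to 92597551), the longest chain of the beaded filaments of type VI collagen, was at -4.86 and -5.13 in G2KO, or 31.8-fold lower, and at 1.12 and 1.33 in G1KO. Its 2 dimmer tested probes were at -1.68 and -0.85 in G2KO and at 0.45 and 0.15 in G1KO. The mean over its probes was -2.51 in G2KO and 0.61 in G1KO, where the gene would not be called. The levels of its brightest probe were 12.59 in the WT of the G1KO pair, 13.82 in G1KO, 15.36 in the WT of the G2KO pair and 10.37 in G2KO. G2KO was lowest and the WT of its own pair highest.

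The remaining type VI chains, which join the Col6a3 product in one filament, did not share its direction in G1KO. Col6a1 was lower in both comparisons, at -1.05 and -1.12 in G1KO and -1.83 and -1.96 in G2KO. Col6a2, its neighbour on chromosome 10, was lower in G2KO at -2.34 and -2.07 and was at -0.94 and -0.75 in G1KO. The levels of Col6a1 differed little between the WT cultures, at 11.86 and 12.22, and stood at 10.77 in G1KO and 10.33 in G2KO, so both knockout cultures lay below both WT cultures. The same held for Col6a2, with 10.83 and 11.12 in the WT cultures, 9.99 in G1KO and 8.91 in G2KO.

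Type VIII collagens form the hexagonal networks of vessel walls and the cornea. Col8a2 was at -3.57 and -3.34 in G2KO, or 11.0-fold lower, and at -0.24 and -0.05 in G1KO. Its level was 10.73 in the WT of the G2KO pair and between 7.27 and 7.57 in the other 3 cultures, so the WT of the G2KO pair stood alone. Col8a1 was lower in G2KO at -1.43 and -1.42 and was at 0.64 and 0.79 in G1KO. Col7a1, which forms the anchoring fibrils under epithelia, was lower in G2KO at -1.59 and -1.49 and was at 0.75 and 0.91 in G1KO.

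Col18a1 (chromosome 10, 76496791 to 76496850) was the only collagen called higher in both comparisons. It was at 1.87 and 1.95 in G1KO, or 3.75-fold higher, and at 3.55 and 3.66 in G2KO, or 12.2-fold higher. Its levels were 7.14 in the WT of the G1KO pair, 9.05 in G1KO, 9.15 in the WT of the G2KO pair and 12.76 in G2KO. G1KO and the WT of the G2KO pair thus stood at nearly the same level, and G2KO was above all others. The second tested probe of the gene was called higher too, at 1.22 in G1KO and 2.76 in G2KO.

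**Figure D2:**
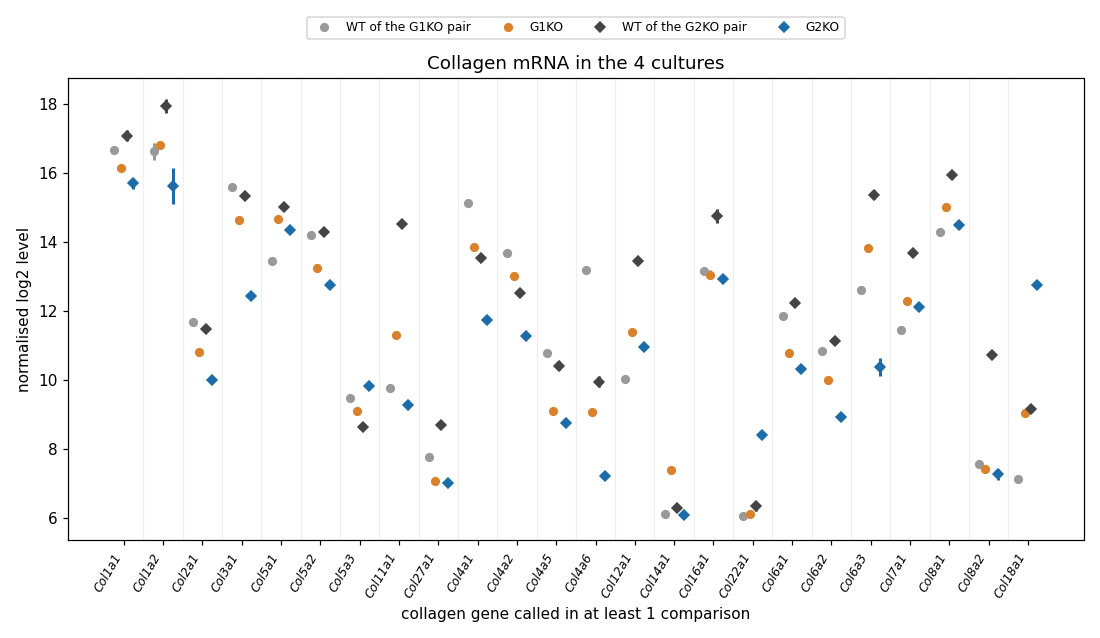
Normalised log2 level (y axis) of the 24 collagen genes called in at least 1 comparison (x axis) in the 4 cultures, with the mean of both dyes as a point and the values in Cy3 and Cy5 as the ends of a bar, often hidden by the point. For Col11a1, Col12a1 and Col8a2 the WT of the G2KO pair lies apart from the other 3 cultures. Both knockout cultures lie below both WT cultures for Col6a1, Col6a2, Col4a5, Col4a6, Col1a1, Col2a1, Col3a1, Col5a2 and Col27a1. The same holds by a small margin for Col16a1 and Col8a2.

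Members called in neither comparison or not tested complete the family. The 7 genes Col4a3, Col9a1, Col10a1, Col13a1, Col23a1, Col25a1 and Col28a1 were tested in neither, since no genotype was well above background on both arrays. Among these are Col10a1, the collagen of hypertrophic cartilage, and the transmembrane collagens Col13a1, Col23a1 and Col25a1. The 9 genes tested but called in neither were Col11a2, Col24a1, Col4a4, Col9a2, Col9a3, Col19a1, Col20a1, Col15a1 and Col17a1. Col17a1, a transmembrane collagen of epithelial hemidesmosomes, was at 0.27 in G1KO and -0.55 in G2KO, and Col15a1 was tested in G1KO alone, at 0.30, with the WT not well above background.

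Over the family, 24 genes were called in at least 1 comparison. The pairs of cultures shared no sample, although both differed in Xist. Col4a1, Col4a5, Col4a6 and Col6a1 were lower in both, which is 4 of the 4 genes lower in G1KO and 4 of the 19 lower in G2KO. Col11a1, Col12a1 and Col6a3 were higher in G1KO and lower in G2KO, which is 3 of the 6 higher in G1KO. No collagen was lower in G1KO and higher in G2KO. These overlaps are to be read beside the rate in G2KO, where 19 of the 32 tested collagens were lower. The share of all genes called in both comparisons is not given here. Neighbouring genes were at like values in part: Col3a1 and Col5a2, side by side on chromosome 1, were at -0.94 and -0.96 in G1KO but at -2.90 and -1.51 in G2KO, and Col6a1 and Col6a2 at -1.09 and -0.84 in G1KO and -1.90 and -2.20 in G2KO. Where a called gene had other tested probes, all 10 of these had the same sign as the brightest in G1KO and 21 of 22 did in G2KO, the exception being that of Col2a1. Of these probes 3 of 10 in G1KO and 13 of 22 in G2KO were called in the same direction as the brightest.

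**Figure D3:**
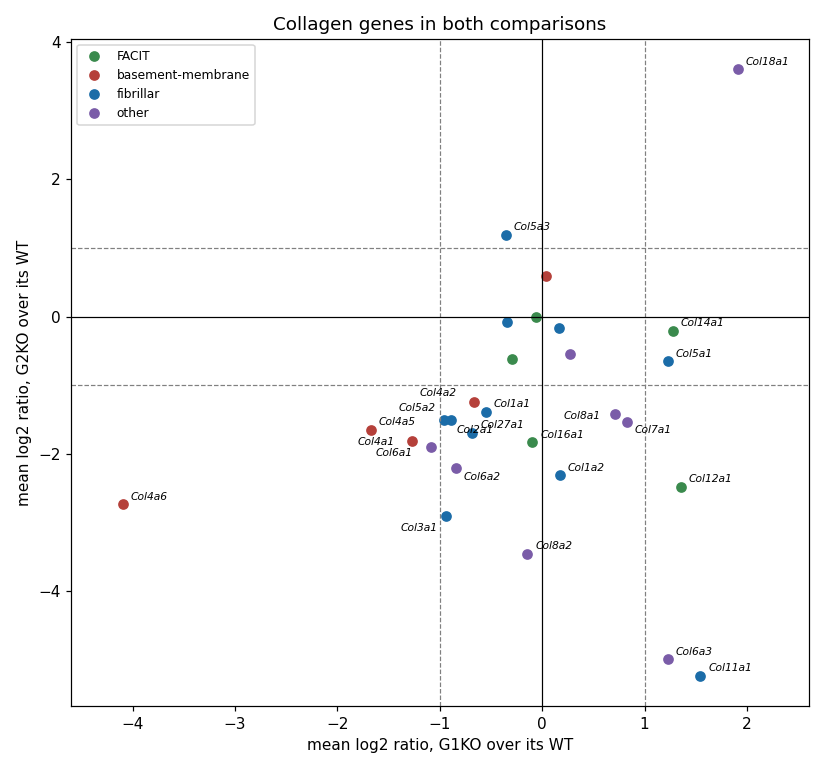
Mean log2 ratio of knockout over WT in G1KO (x axis) and in G2KO (y axis) for the 29 collagen genes tested in both, coloured by class, with genes called in at least 1 comparison named and dashed lines at a 2-fold difference. Col18a1 lies alone at the upper right, Col4a6 far to the left, and Col11a1, Col6a3 and Col12a1 at the lower right.

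How far cultures of the same genotype differ was measured by setting the WT of the G2KO pair against the WT of the G1KO pair, Cy3 against Cy3 and Cy5 against Cy5. Of 31 collagen genes tested, 9 were higher in the WT of the G2KO pair and 3 were lower, against 6.47% higher and 6.33% lower of all 16938 genes tested. The 9 were Col11a1 at 4.76, Col12a1 at 3.40, Col8a2 at 3.16, Col6a3 at 2.77, Col7a1 at 2.21, Col18a1 at 2.01, Col8a1 at 1.64, Col16a1 at 1.60 and Col5a1 at 1.56. The 3 were Col4a6, Col4a1 and Col4a2, given above. The collagen differences between WT cultures were thus of the same size as many of those between knockout and WT.

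As a control chosen after seeing the data, each knockout was also set against the WT of the other pair. These comparisons share their knockout culture with those above. Against the other WT, G2KO had 10 collagens lower and 2 higher of 29, with a median of -0.30, where 7.86% of all genes tested were lower and 5.71% higher. The 10 were Col2a1, Col3a1, Col5a2, Col4a1, Col4a2, Col4a5, Col4a6, Col6a1, Col6a2 and Col6a3, and the 2 were Col18a1 and Col22a1. Col3a1 was at -3.14 and Col6a3 at -2.22 there, whereas Col11a1 was at -0.47, Col8a2 at -0.30 and Col12a1 at 0.92. The type I genes Col1a1 at -0.98 and Col1a2 at -1.01 were not called there either. G1KO had 12 lower and 1 higher of 32 against the other WT, with a median of -0.90, where 5.19% of all genes were lower and 3.72% higher. Col11a1, Col12a1 and Col6a3 were higher in G1KO against its own WT and lower against the other, at -3.21, -2.04 and -1.54. Col4a5 at -1.32 and Col6a1 at -1.45 were lower against either WT.

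The enzymes and chaperones that make collagen gave few calls. Of 39 genes on the lists of chain hydroxylation, chaperones and export, propeptide processing and cross-linking, 36 were tested in G2KO, of which 4 were lower and none was higher. In G1KO 37 were tested, of which 1 was higher and 1 lower. Over all genes 4.84% were lower in G2KO, and 2.48% were higher and 4.46% lower in G1KO. Between the WT cultures 5 of 37 were higher in that of the G2KO pair and 2 lower. The median log2 ratios in G2KO were -0.44 for hydroxylation, -0.59 for chaperones and export, -0.78 for propeptide processing and -1.06 for cross-linking, and in G1KO -0.17, -0.20, -0.05 and 0.18. Lox, the lysyl oxidase that starts fibril cross-linking, was at -4.98 and -5.12 in G2KO and at -1.40 and -1.75 in G1KO. Its level was 14.04 and 13.56 in the WT cultures, 12.46 in G1KO and 8.51 in G2KO, so that both knockout cultures lay below both WT cultures. Loxl3, a related oxidase, was lower in G2KO at -1.33 and higher in G1KO at 1.39. P3h1, which hydroxylates prolines of collagen, was lower in G2KO at -1.11 and was at -0.19 in G1KO. Tll1, a protease that trims procollagens, was lower in G2KO at -1.33 and was at 0.08 in G1KO.

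Among collagen receptors 7 of 10 were tested in each comparison, with 2 lower in G2KO and 1 higher and 1 lower in G1KO. Between the WT cultures 2 of 7 were higher in that of the G2KO pair and 1 was lower. Over all genes 4.84% were lower in G2KO, and 2.48% were higher and 4.46% lower in G1KO. Ddr2, a receptor kinase for fibrillar collagen, was at -4.07 and -4.02 in G2KO and was not called in G1KO, at 0.46. Mrc2, which takes up collagen for degradation, was at -2.48 in G2KO and 1.19 in G1KO. Its level was 9.55 in the WT of the G1KO pair, 10.74 in G1KO, 12.07 in the WT of the G2KO pair and 9.59 in G2KO. Ddr1, the related receptor kinase, was lower in G1KO at -1.73 and was at 0.21 in G2KO. Of genes for collagen breakdown, Mmp2 was lower in G2KO at -3.38 and at -0.88 in G1KO, Mmp13 was lower in G1KO at -2.97, and the cathepsin Ctsk was higher in G1KO at 1.42. Their list had 5 genes tested in G2KO and 6 in G1KO.

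**Figure D4:**
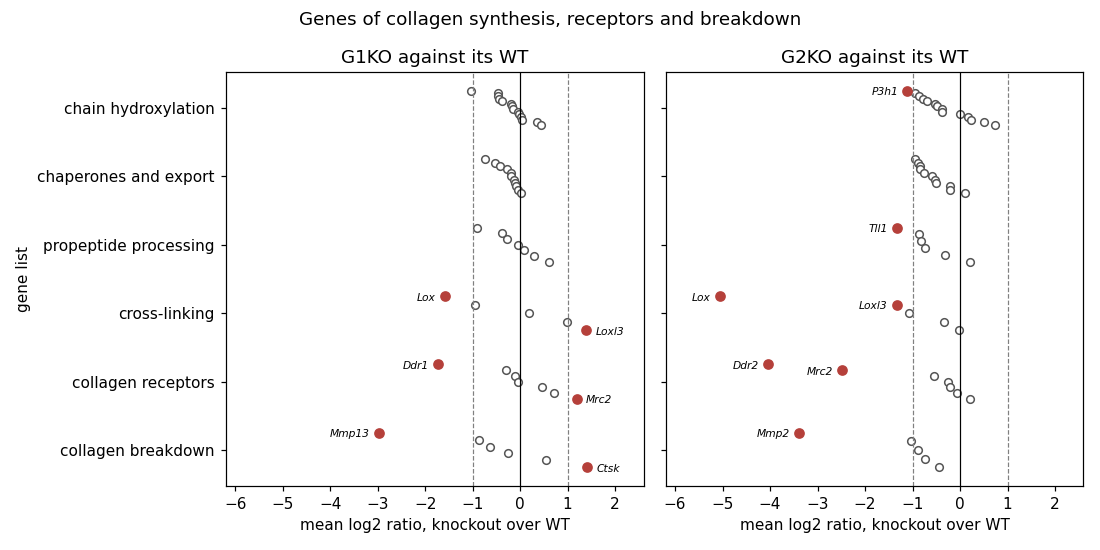
Mean log2 ratio of knockout over WT (x axis) for the tested genes of 6 lists (y axis). Filled red points are genes called, which are named, open points are the others, and dashed lines mark a 2-fold difference. Lox at -5.05, Ddr2 at -4.05 and Mmp2 at -3.38 lie farthest left in G2KO.

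Of 22 regulators of collagen transcription, 20 were tested in G2KO, with 2 higher and 2 lower, and 19 in G1KO, with 1 higher and 2 lower, beside all-gene shares of 2.73% and 4.84% in G2KO and 2.48% and 4.46% in G1KO. Between the WT cultures 3 of 20 were higher in that of the G2KO pair and 3 were lower. Sox9, the cartilage factor that drives Col2a1 in chondrocytes, was lower in G2KO at -3.08 and higher in G1KO at 1.32. Tgfb3, a growth factor of fibrotic tissue, was lower in G2KO at -3.21. Its levels in the same order of cultures were 12.33, 11.59, 14.56 and 11.35, so the WT of the G2KO pair was highest for Sox9 and Tgfb3. Ccn2, the connective tissue growth factor, was higher in G2KO at 1.90 and lower in G1KO at -1.89. Its level was 17.71 in the WT of the G1KO pair, 15.82 in G1KO, 15.23 in the WT of the G2KO pair and 17.13 in G2KO. G2KO thus lay below the WT of the G1KO pair. Sox6, a partner of Sox9, was higher in G2KO at 3.54 and was not tested in G1KO. The median log2 ratio of the list was 0.17 in G2KO and -0.08 in G1KO.

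Markers of cell types differed beside the collagens in G2KO. Of the fibroblast markers 4 of 10 were lower, Pdgfra at -4.63, Thy1 at -3.22, Twist2 at -2.49 and Dcn at -1.34, and none was higher. Over all genes tested 4.84% were lower and 2.73% higher. In the WT of the G2KO pair 2 of the 10 were higher than in the other WT and 1 was lower. The summed level of the list was 236000 to 339000 in G2KO and 352000 to 483000 in its WT. Such a sum rests mostly on the brightest genes of a list. Here S100a4 was brightest, at a log2 level of 17.91 in that WT, with ratios of 0.10 and -1.16 in G2KO. Among 10 chondrocyte markers Matn1, Hapln1, Cnmd, Epyc and Ucma were above background on no array of any culture, and the summed level was 1130 to 1200 in G2KO and 4720 to 4930 in its WT, where Sox9 was the marker called. Sox9 was also the brightest of the list, at a log2 level of 12.03 in that WT and 8.95 in G2KO. Of 11 neural and glial markers Sox2 was higher at 5.59 and Nes at 3.37, and the summed level was 22700 to 23000 against 3100 to 3450 in its WT. Nes, at a log2 level of 14.01, and Sox2, at 12.34, were the brightest of the list in G2KO. Of the tested osteoblast markers 2 of 7 were lower in G2KO, Spp1 at -2.26 and Phex at -1.47, and of the tenocyte markers 1 of 4, Tnmd, at least 4.85-fold. Of the tested smooth muscle (6), endothelial (1), epithelial (2) and macrophage (2) markers 0 were called in G2KO. The WT of the G2KO pair also differed from the other WT. Higher in it were 1 of 5 chondrocyte, 1 of 10 neural and glial, 1 of 7 osteoblast, 2 of 4 tenocyte and 1 of 6 smooth muscle markers. Lower in it were 2 of 2 endothelial and 1 of 3 epithelial markers. In G1KO 3 of the 10 fibroblast markers were higher and 1, Dcn at -4.05, was lower, and mesothelial markers were as given above. Over all genes 2.48% were higher and 4.46% lower in G1KO. Of the tested osteoblast markers 1 of 6, Spp1 at 3.76, was higher in G1KO. The summed level of that list was 63000 to 80800 in G1KO and 6050 to 8490 in its WT. Spp1 was the brightest of that list in both, at a log2 level of 16.05 in G1KO and 12.29 in its WT. It stood at 16.05 in the WT of the G2KO pair and 13.79 in G2KO. Of the tested neural and glial markers 2 of 8 were higher in G1KO, Nes at 2.34 and S100b at 2.602, and of the chondrocyte markers 1 of 5, Sox9. Of the smooth muscle markers 2 of 5 were higher, Cnn1 at 1.57 and Myh11 at 1.03. The smooth muscle markers Acta2 at -0.12 and Tagln at -0.26 were below 0 and not called. Lower in G1KO were 1 of 4 tested tenocyte markers, Scx at -1.35, and 1 of 2 endothelial markers, Emcn at -2.65. So was 1 of 3 epithelial markers, Krt14 at -2.09. The tenocyte markers Tnmd at 0.95 and Fmod at 0.86 went the other way and were not called, and the median of that list was 0.18. Nes was thus higher in both comparisons. No macrophage marker was called in G1KO. The part of these differences in the collagen values was not tested.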

How the data were processed

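RNA of 4 MEF cultures was measured on 4 Agilent arrays of 2 colours, all on 1 slide and in 1 scan. Spots were read by the authors with Feature Extraction. The grid-placement entry in the header of the first array gives version 10.5.1.1, while the study's methods name an earlier version. Per the file headers, the scanner files give each spot's linear intensity, not yet normalized, with the scanner's log10 ratio of Cy5 over Cy3; the deposited series table holds log10 ratios turned to knockout over WT. The scanner's p-values, deposited too, were not used.

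Intensities were handled in R 4.3.3 by limma 3.58.1: normexp background correction (offset 50), control and outlier spots left out, loess within arrays, spots of a probe averaged, and both arrays averaged. Levels across arrays come from loess and Aquantile. "At least" folds compare the bright genotype with the dim one, raised where lower to the least signal called well above background on that array. Names were matched to RefSeq (GRCm38.p6) by accession, symbol or older symbol, and all 81 collagen probes kept theirs. RefSeq names gave 3 more collagens, named otherwise on the array and left out by the rule. Probe positions are mm8; exons were not analysed here. With 1 culture per genotype there was no test and there are no p-values; the number of arrays limits the precision. Members and lists were chosen with earlier results of these data known. All collagens are accounted for, and of each pathway list up to 4 called genes, most changed first, are named. Alternatives were the scanner's ratio, the series table, median centring, no background subtraction, an offset of 16, other filters and thresholds, the mean over probes, and each array left out.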

Additional observations from a re-analysis of the deposited data

Results flagged for a closer look

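In 8 genes called in at least 1 comparison every array of one pair lay on one side of 0 and every array of the other pair on the opposite side. The difference between the comparisons was not tested, since each genotype is 1 culture. The log2 ratio in G2KO minus that in G1KO was -6.77 for Col11a1, -6.22 for Col6a3, -3.83 for Col12a1, -2.37 for Col7a1, -2.14 for Col8a1, -1.88 for Col5a1, -1.48 for Col14a1 and 1.55 for Col5a3. For Col11a1, Col6a3, Col12a1, Col7a1, Col8a1 and Col5a1 the WT of the G2KO pair was also higher than the WT of the G1KO pair, by the amounts given above. The G2KO comparison shares that WT culture.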

How the results depend on the processing

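Each genotype was 1 culture, so the values describe these cultures, and collagens near background (Col14a1, Col22a1, Col9a3, Col19a1) rest on little signal. Slide and scan were shared by all arrays, so no block could be fitted. No paired analysis was possible because the replicate numbers name the arrays of a dye swap and no test was made. Median centring without loess left 2 collagens higher and 1 lower in G1KO and 10 lower in G2KO, with a G2KO median of -1.32; the cause was not tested. At a 4-fold threshold 0 were higher and 1 lower in G1KO, 1 higher and 8 lower in G2KO, and 5 higher and 1 lower between the WT cultures. Without a filter on dim probes the medians were -0.026 in G1KO and -0.63 in G2KO, and with both genotypes above background -0.22 and -1.53. The scanner's ratio and the series table each gave 8 higher in G1KO and 22 lower in G2KO. The G2KO median was -1.53 with the scanner's ratio, -1.53 with the series table and -1.18 with the mean over probes. With the mean over probes 4 collagens were higher and 4 lower in G1KO. Leaving out either array gave medians of -0.24 to -0.16 in G1KO and -1.46 to -1.43 in G2KO and the same counts.

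With the WT of the other pair as the control, chosen after seeing the data, G1KO had 1 collagen higher and 12 lower and a median of -0.90, and G2KO had 10 lower and a median of -0.30. Among genes called in the comparison named, signs turned in G1KO for Col5a1 (-0.33), Col11a1 (-3.21), Col4a1 (0.31), Col12a1 (-2.04), Col6a3 (-1.54) and Col18a1 (-0.11), and in G2KO for Col12a1 (0.92), Col7a1 (0.67) and Col8a1 (0.21); the control culture differed by construction. Among the 24 genes called in at least 1 comparison, some ratios not called against their own WT turned too. These were Col1a2, Col5a3, Col4a2, Col7a1 and Col8a1 in G1KO and Col5a1 in G2KO. Of genes called in neither, Col4a4 and Col17a1 turned in G1KO, and Col11a2, Col9a2, Col20a1 and Col17a1 in G2KO. Under the other alternatives no ratio called in its comparison changed sign. Of the uncalled ratios of these 24 genes, Col1a2 (-0.16) and Col16a1 (0.14) did in G1KO without the array with the knockout in Cy5. Genes called in neither comparison, with ratios nearer 0, are not covered by this statement.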
